A study of Homo sapiens with 3 samples.

Results

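The genes described are 36 named genes of glucose breakdown and of the response to low oxygen, found by symbol among the 48162 entries of a table of RNA-seq read counts. Each symbol occurred once. There are 23 genes of glycolysis, from glucose uptake to lactate export, and 13 genes of oxygen sensing and of targets of hypoxia-inducible factor (HIF). They were measured by sequencing total RNA from HCT116, a long-established line of human colon cancer cells, with 3 libraries in all and 1 per group. One came from cells exposed to 1 µM palbociclib, an inhibitor of the kinases CDK4 and CDK6, for 24 hours. Another came from cells transfected with a CDK4 siRNA, a small RNA that lowers its target mRNA, and taken at 24 hours, and the last came from untreated cells. No library from cells given drug solvent or a non-targeting siRNA was analysed here, and the oxygen level of the cultures is not given in the sources used here. Both treated libraries are set against the same untreated one, so their ratios share its errors. The design asks how inhibiting CDK4 and CDK6 and lowering CDK4 mRNA each differ from the untreated state.

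Glycolysis turns glucose into pyruvate in the cytosol, and lactate dehydrogenase and a lactate exporter dispose of the pyruvate when it does not enter the mitochondria. HIF is a pair of proteins whose alpha subunit is marked for destruction by oxygen-dependent prolyl hydroxylases. When oxygen is short the alpha subunit persists and switches on many glycolytic genes together with genes of blood vessel growth, collagen modification and mitophagy. Tumour cells, colon cancer cells included, often run glycolysis at a high rate in the presence of oxygen.

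HIF binds the hypoxia response element, whose core is ACGTG or GCGTG. The windows below belong to 4 of the 9 genes that lay 1.5-fold or more from the untreated level in the palbociclib library. These 4 were picked by hand, so they do not stand for the 9. Each is the 250 bases before a RefSeq start (GRCh38.p14, plus strand, 5′ to 3′), with every match to either core on either strand in capitals. They lie at chr4:185396591-185396840 for ANKRD37, chr11:18394313-18394562 for LDHA, chr12:6867281-6867530 for TPI1 and chr10:97427568-97427817 for PGAM1. For LDHA and TPI1 the more upstream of 2 listed starts is shown, and the other LDHA window held 1 match.
ANKRD37: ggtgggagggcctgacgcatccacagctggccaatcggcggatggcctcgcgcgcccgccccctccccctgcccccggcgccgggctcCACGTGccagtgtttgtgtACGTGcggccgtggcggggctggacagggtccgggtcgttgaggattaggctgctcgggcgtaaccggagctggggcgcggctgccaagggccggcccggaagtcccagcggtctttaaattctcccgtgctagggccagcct
LDHA: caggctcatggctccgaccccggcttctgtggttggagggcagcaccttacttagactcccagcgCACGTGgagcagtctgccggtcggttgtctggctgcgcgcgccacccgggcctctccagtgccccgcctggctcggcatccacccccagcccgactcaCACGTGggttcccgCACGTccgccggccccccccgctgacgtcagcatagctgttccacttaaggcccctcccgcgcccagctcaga
TPI1: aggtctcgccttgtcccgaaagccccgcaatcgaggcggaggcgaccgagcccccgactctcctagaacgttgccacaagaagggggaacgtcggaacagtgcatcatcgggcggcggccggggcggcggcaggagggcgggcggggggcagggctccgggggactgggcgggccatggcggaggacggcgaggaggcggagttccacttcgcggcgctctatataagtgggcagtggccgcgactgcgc
PGAM1: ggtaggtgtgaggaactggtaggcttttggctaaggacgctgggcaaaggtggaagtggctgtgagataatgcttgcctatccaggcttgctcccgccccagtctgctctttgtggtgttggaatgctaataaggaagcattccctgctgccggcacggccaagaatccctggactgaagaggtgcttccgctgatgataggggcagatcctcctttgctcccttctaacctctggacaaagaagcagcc

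ANKRD37, higher with palbociclib by the 2-fold rule, had 3 core matches in its window, and LDHA, lower by the 1.5-fold rule, had 5. The windows of TPI1 and PGAM1, both lower with palbociclib by at least 1.5-fold, held none, but the window of the second TPI1 start held 2. A CACGTG, the letters of an E-box bound by MYC and its relatives, counts as ACGTG on both strands, and there were 2 in the LDHA window and 1 in the ANKRD37 window. Of the other genes past 1.5-fold, PFKFB3 had 1 and 2 core matches in its windows and KDM3A had 1 in each. The windows of SLC16A3 held between 0 and 3. VEGFA and NDRG1 were not in the RefSeq table, so no window of theirs was searched. Of the 36 genes, 32 were in the RefSeq table, with 60 windows, since many genes have several starts. Either core was present in 35 of these windows (58.3%), against 43.2% of all 35116 windows of the same length. The matches describe letters in a window and say nothing of binding.

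The libraries held 18020870 reads for palbociclib, 18349355 for CDK4 siRNA and 20313597 for untreated cells. Levels are given in CPM, the reads of a gene relative to the library total, after scaling with TMM, a method that lines up the bulk of genes between libraries. Brackets after a ratio hold its 95% interval for counting error only. It narrows as reads rise, so a small difference excludes 1 more readily in a gene with many reads. There are no replicates, so no test between conditions was possible and every difference is one between single libraries. CPM is relative to all counted reads, so less of an mRNA per cell and more of all other RNA cannot be told apart. CDK4 had 87.8 CPM with palbociclib, 53.8 CPM with CDK4 siRNA and 128 CPM in untreated cells. Of 11 colon epithelial markers, KRT8, KRT18, KRT19, EPCAM, CDH1 and CDX2 were expressed. KRT20 had at most 22 reads, VIL1 and CDH17 at most 5, LGALS4 at most 4 and CDX1 none. Blood, fibroblast and endothelial markers together stayed within 3.45, 22.49 and 0.986 summed CPM in any library, and PTPRC, COL1A2, LUM and CDH5 had no reads. Of the blood markers CD14 had 52 reads with palbociclib, 3 with CDK4 siRNA and 0 in untreated cells. Of the fibroblast markers COL1A1 held 141 of 146 reads with palbociclib, 434 of 443 with CDK4 siRNA and 310 of 317 in untreated cells. Mitochondrial mRNAs took 6.53% of the palbociclib reads, 3.85% of the CDK4 siRNA reads and 4.02% of the untreated reads, and the nuclear non-coding RNA MALAT1 had 13502 reads with palbociclib, 2211 with CDK4 siRNA and 1355 in untreated cells. The part of these differences in the results below was not tested.

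The 23 glycolysis genes together took 1.496% of all reads with palbociclib, 1.83% with CDK4 siRNA and 1.94% in untreated cells. These shares are not TMM-scaled. After TMM scaling the genes summed to 16606 CPM with palbociclib, 17005 with CDK4 siRNA and 18802 in untreated cells, so the distances depend on the scaling. Per length, in the deposited FPKM values, ENO1 was the highest of the 36 genes in every library, at 1498 FPKM with palbociclib, 1857 with CDK4 siRNA and 2048 in untreated cells. GAPDH was second everywhere. ALDOA had rank 3 with palbociclib, rank 4 with CDK4 siRNA and rank 5 in untreated cells. SLC2A3 had the lowest level but 1 and CA9 the lowest in each library. CA9, which encodes a carbonic anhydrase known as a sensitive marker of HIF activity, had 5 reads with palbociclib, 2 with CDK4 siRNA and 5 in untreated cells. It was the only gene below the filter of a mean of 1 CPM, so 35 genes were compared.

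**Figure D1:**
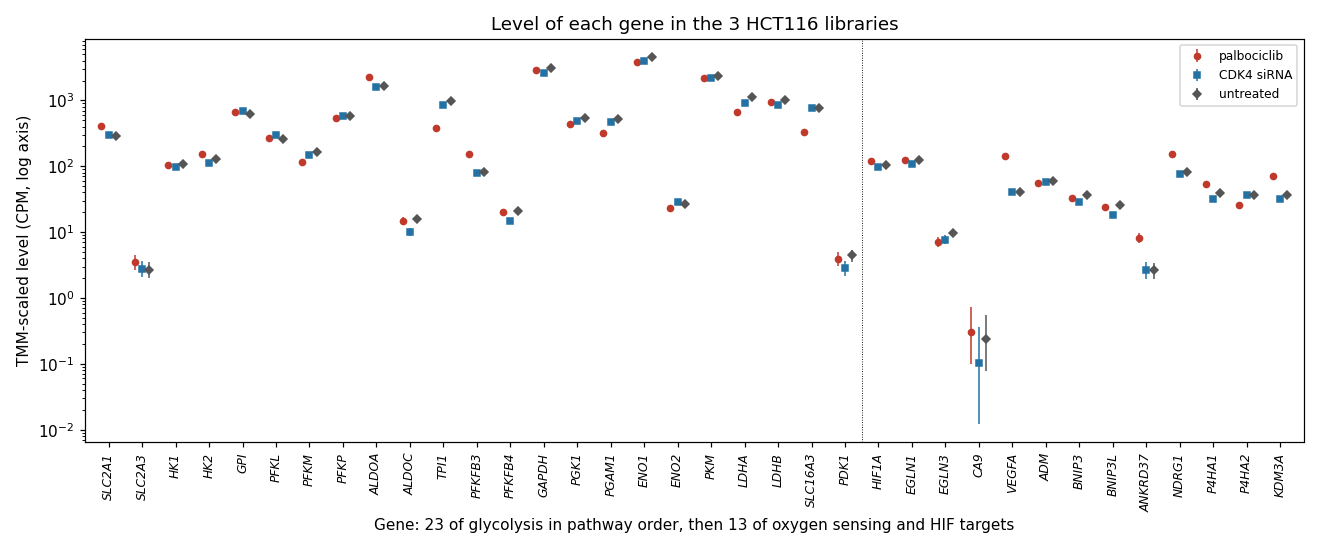
Level of each of the 36 genes in CPM (log axis) in the palbociclib, CDK4 siRNA and untreated libraries, 1 point per library with a 95% Poisson counting interval. Levels run from below 1 CPM for CA9 to 4489 CPM for ENO1 in untreated cells, and the palbociclib points of TPI1, SLC16A3, VEGFA and ANKRD37 stand clear of the other libraries.

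In the palbociclib library set against the untreated one, 4 of the 35 genes passed a 2-fold rule, which asks for a log2 ratio of 1 or more, up or down, and an interval that excludes 1. VEGFA and ANKRD37 were higher, TPI1 and SLC16A3 were lower, and the rest lay between 0.583 and 1.93 times the untreated level. Of all 12694 genes compared, 10% were higher and 13.6% lower by the same rule. Counts of 2 and 2 of 35 are small, and no difference from these shares was tested. With a 1.5-fold rule 5 genes were higher and 4 lower, against 20.3% and 25.3% of all genes. The median log2 ratio of the 35 genes was −0.09, against −0.07 for all genes.

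SLC2A1, the main glucose transporter of most tumour cells, had 410 CPM with palbociclib, 293 with CDK4 siRNA and 289 in untreated cells. It was at 1.42 times the untreated level with palbociclib (1.37 to 1.47) and at 1.01 with CDK4 siRNA (0.976 to 1.05). SLC2A3, a high-affinity glucose transporter, had between 55 and 57 reads in each library, and the intervals of its ratios included 1. Hexokinase traps glucose in the cell as glucose-6-phosphate. HK2, the isoform commonly induced in tumours, had 153 CPM with palbociclib, 112 with CDK4 siRNA and 131 in untreated cells, a ratio to untreated of 1.17 (1.10 to 1.23) with palbociclib and 0.857 (0.810 to 0.906) with CDK4 siRNA. With total-count scaling the palbociclib interval of HK2 includes 1. HK1, the widely expressed isoform, had 106 CPM with palbociclib, 96.9 with CDK4 siRNA and 107 in untreated cells.

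The steps from glucose-6-phosphate to triose phosphates went different ways in the palbociclib library. GPI, the isomerase of the second step, was at 1.07 times the untreated level (1.05 to 1.10), a ratio that is below 1 with total-count scaling. Of the phosphofructokinase genes, which encode the committed step, PFKM was at 0.715 (0.676 to 0.756), PFKP at 0.946 (0.920 to 0.972) and PFKL at 1.04 (1.00 to 1.08), and the sides of PFKP and PFKL depend on the scaling. ALDOA, the main aldolase here, had 2271 CPM with palbociclib, 1603 with CDK4 siRNA and 1642 in untreated cells. That is 1.38 times the untreated level with palbociclib (1.36 to 1.4).

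TPI1, which encodes the only enzyme that interconverts the triose phosphates that aldolase makes, had the lowest ratio of the 35 genes with palbociclib. It had 385 CPM (6258 reads) with palbociclib, 847 CPM (16691 reads) with CDK4 siRNA and 962 CPM (20194 reads) in untreated cells. The palbociclib level was 0.401 times untreated (0.390 to 0.412), or −1.32 on the log2 scale, at percentile 7.78 of the ratios of all genes compared. The neighbouring steps did not share this distance, since ALDOA was at 1.38 and GAPDH at 0.935. Within a library, where scaling cancels, there were 0.170 TPI1 reads per ALDOA read with palbociclib, 0.528 with CDK4 siRNA and 0.585 in untreated cells. This pair was chosen after its values were seen. TPI1 has processed copies, and how the counting treated reads shared with them was not tested. The 4 entries named as TPI1 pseudogenes held 69 reads with palbociclib, 118 with CDK4 siRNA and 141 in untreated cells.

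PFKFB3 and PFKFB4 encode enzymes that make and break fructose-2,6-bisphosphate, the strongest activator of phosphofructokinase, and PFKFB3 mainly makes it. PFKFB3 had 151 CPM with palbociclib, 79.1 with CDK4 siRNA and 82.3 in untreated cells. It was at 1.83 times untreated with palbociclib (1.72 to 1.95), above the 1.5-fold and below the 2-fold rule, and at 0.961 with CDK4 siRNA (0.897 to 1.03). PFKFB4, a HIF target, had 20.0 CPM with palbociclib, 14.8 with CDK4 siRNA and 20.7 in untreated cells. Reads of PFKFB4 per read of PFKFB3 were 0.132 with palbociclib, 0.187 with CDK4 siRNA and 0.251 in untreated cells.

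All 6 genes from GAPDH to pyruvate kinase had palbociclib intervals below 1, where 41.9% of all genes do, but none passed the 2-fold rule. With upper-quartile factors 3 of the 6 intervals stayed below 1 and GAPDH moved above. PGAM1, the phosphoglycerate mutase, was the furthest, with 315 CPM with palbociclib, 470 with CDK4 siRNA and 528 in untreated cells, a ratio to untreated of 0.597 (0.577 to 0.617) with palbociclib. PGK1, which encodes the first ATP-yielding enzyme of the pathway, was at 0.799 (0.776 to 0.823), and ENO1, the main enolase, at 0.840 (0.831 to 0.848). PKM, the pyruvate kinase gene, was at 0.917 (0.905 to 0.930) and GAPDH at 0.935 (0.924 to 0.946). ENO2, the neuronal enolase, was at 0.870 (0.761 to 0.993). Within a library there were 0.0836 PGAM1 reads per ENO1 read with palbociclib, 0.120 with CDK4 siRNA and 0.118 in untreated cells, a pair also chosen after its values were seen. GAPDH has 58 entries named as pseudogenes, which together held 77 to 91 reads per library.

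SLC16A3, which encodes the lactate exporter MCT4, had 327 CPM with palbociclib, 767 with CDK4 siRNA and 774 in untreated cells. It was lower by the 2-fold rule with palbociclib, at 0.422 times untreated (0.409 to 0.436), and at 0.990 with CDK4 siRNA (0.968 to 1.01). Its exons overlap those of CSNK1D on the opposite strand in GENCODE 29. CSNK1D had 4867 reads with palbociclib, 3460 with CDK4 siRNA and 3642 in untreated cells, and whether the counting used strand is not given in the sources used here.

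LDHA, which encodes the lactate dehydrogenase subunit typical of glycolytic tissues, had 656 CPM with palbociclib, 909 with CDK4 siRNA and 1124 in untreated cells. LDHB, the subunit typical of heart, had 950.0 CPM with palbociclib, 850.0 with CDK4 siRNA and 1029.9 in untreated cells. Palbociclib thus held 0.583 of the untreated LDHA level (0.570 to 0.597) and 0.922 of the untreated LDHB level (0.903 to 0.942). LDHB is above 1 with upper-quartile factors. There were 0.690 LDHA reads per LDHB read with palbociclib, 1.07 with CDK4 siRNA and 1.09 in untreated cells. That within-library ratio was 0.632 times the untreated one with palbociclib (0.613 to 0.652) and 0.980 times with CDK4 siRNA (0.953 to 1.01). LDHA is listed with 6 pseudogene entries, which held 102 reads with palbociclib, 71 with CDK4 siRNA and 99 in untreated cells. PDK1, a HIF target that encodes a kinase that shuts pyruvate out of the mitochondrial dehydrogenase, had 64 reads with palbociclib, 56 with CDK4 siRNA and 93 in untreated cells, with a palbociclib ratio of 0.890 (0.637 to 1.24).

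**Figure D2:**
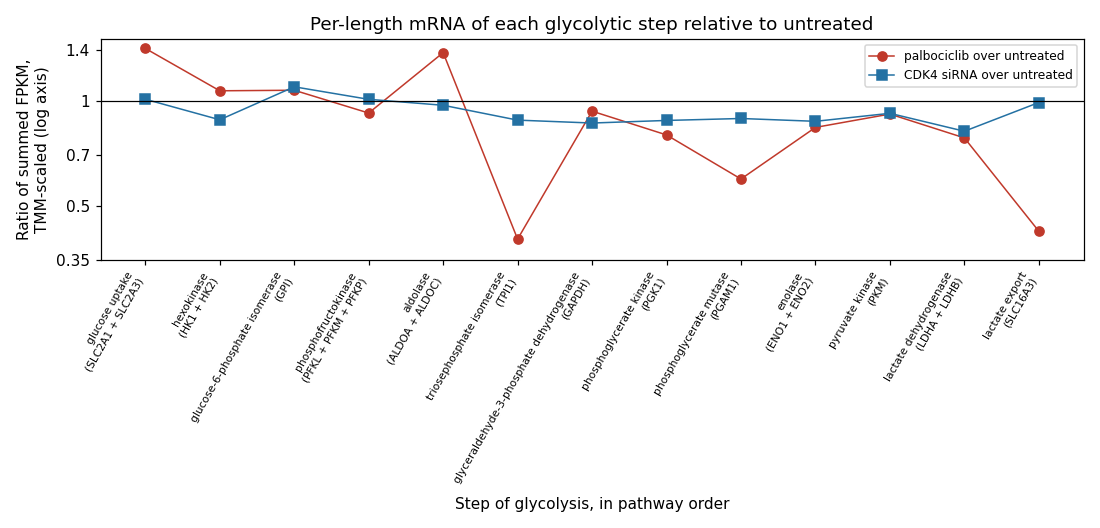
Ratio of the summed FPKM of the genes of each glycolytic step to the untreated library, rescaled with TMM (log axis), for palbociclib and CDK4 siRNA, in pathway order, 1 library per group and no error bars. With palbociclib TPI1 at 0.401, lactate export at 0.422 and PGAM1 at 0.597 are the low points, while glucose uptake at 1.42 and aldolase at 1.38 are the high ones; CDK4 siRNA runs between 0.819 and 1.10. Total-count scaling lowers every palbociclib point and puts the GPI and hexokinase steps below 1.

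HIF1A, the gene of the oxygen-regulated subunit, had 121 CPM with palbociclib, 97.4 with CDK4 siRNA and 103 in untreated cells. It was at 1.18 times untreated with palbociclib (1.11 to 1.25), with an interval that includes 1 under total-count scaling. HIF-1 alpha is controlled mainly through protein stability, which was not measured. EGLN1, the main prolyl hydroxylase, was at 0.993 (0.936 to 1.05), and EGLN3, a hydroxylase that is itself a HIF target, at 0.726 (0.572 to 0.916). EGLN3 had 115 reads with palbociclib, 151 with CDK4 siRNA and 205 in untreated cells, or 7.08, 7.66 and 9.76 CPM.

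VEGFA, the growth factor gene that drives blood vessel sprouting, had the highest ratio of the 35 genes with palbociclib. It had 2282 reads with palbociclib, 795 with CDK4 siRNA and 856 in untreated cells. Its level was 141 CPM with palbociclib, 40.4 with CDK4 siRNA and 40.8 in untreated cells. The palbociclib level was 3.45 times untreated (3.19 to 3.73) and the CDK4 siRNA level 0.990 times (0.898 to 1.09). ANKRD37, a small ankyrin repeat gene induced by HIF, had 134 reads with palbociclib, 52 with CDK4 siRNA and 55 in untreated cells, and was at 3.15 times untreated with palbociclib (2.29 to 4.40). ANKRD37 had 8.25 CPM with palbociclib, 2.64 with CDK4 siRNA and 2.62 in untreated cells. Its mean of 4.5 CPM is the lowest of the genes past the rule. ANKRD37 exons overlap UFSP2 on the opposite strand, and UFSP2 had 191 reads with palbociclib, 265 with CDK4 siRNA and 332 in untreated cells.

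KDM3A, a histone demethylase gene, was at 1.93 times untreated with palbociclib (1.76 to 2.11), NDRG1, a stress and differentiation gene, at 1.83 (1.72 to 1.95), and both passed the 1.5-fold rule. KDM3A had 71.0 CPM with palbociclib, 31.8 with CDK4 siRNA and 36.9 in untreated cells. NDRG1 had 152 CPM with palbociclib, 76.5 with CDK4 siRNA and 83.0 in untreated cells. P4HA1 and P4HA2 encode catalytic subunits of collagen prolyl 4-hydroxylase, and they went opposite ways. P4HA1 was at 1.37 times untreated (1.25 to 1.51) and P4HA2 at 0.712 (0.630 to 0.803). P4HA2 reads per P4HA1 read were 0.470 with palbociclib, 1.18 with CDK4 siRNA and 0.905 in untreated cells.

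Several well-known HIF targets lay close to the untreated level with palbociclib. ADM, the gene of the vasodilator peptide adrenomedullin, was at 0.934 (0.857 to 1.02). The mitophagy genes BNIP3 and BNIP3L were at 0.932 (0.833 to 1.04) and 0.937 (0.821 to 1.07). All 3 ratios are above 1 with upper-quartile factors. Of the 9 genes compared in the group of other HIF targets, 5 had intervals above 1 and 1 below, against 36% and 41.9% of all genes, and with total-count scaling 5 lay above and 4 below. The group leaves out HIF targets placed by their role elsewhere, such as EGLN3, PDK1, PFKFB4 and ALDOC.

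**Figure D3:**
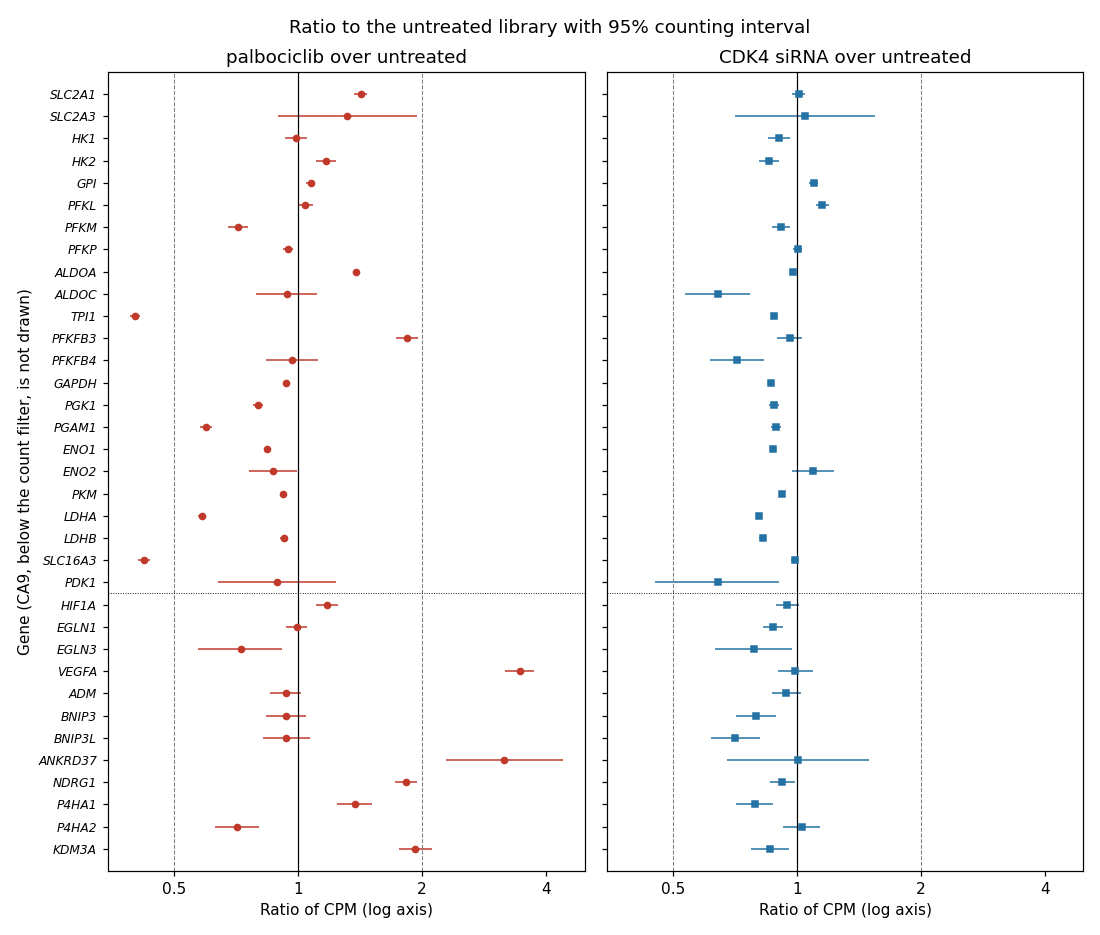
Ratio of CPM to the untreated library (log axis) for the 35 genes compared, palbociclib on the left and CDK4 siRNA on the right, 1 library per group with 95% counting intervals; dashed lines mark 2-fold and the dotted line divides glycolysis from oxygen sensing and HIF targets. With palbociclib VEGFA and ANKRD37 lie past 2-fold on the high side and TPI1 and SLC16A3 on the low side, whereas with CDK4 siRNA no gene does. The palbociclib points of 12 genes close to 1 change side with the scaling.

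No gene of the 35 passed the 2-fold rule in the CDK4 siRNA library, which 1.10% of all genes passed as higher and 0.118% as lower. Intervals excluded 1 on the low side for 22 genes and on the high side for 2, PFKL and GPI, against 23.7% and 17.7% of all genes. Many of the 35 have far more reads than genes near the filter, and the part of depth in these counts was not tested. The Spearman correlation of the log2 ratio with mean CPM was −0.191 across all genes and 0.165 across the 35. With total-count scaling 6 intervals lay above 1. The median log2 ratio was −0.14, against −0.02 for all genes. By rank, 25 of 35 genes lay below the median gene and 9 below percentile 10 of all genes. Low ratios of such genes in this library had already been seen when the 36 were chosen, so these counts are no independent support.

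The 9 genes below percentile 10 were ALDOC, PDK1, BNIP3L, PFKFB4, EGLN3, P4HA1, BNIP3, LDHA and LDHB. ALDOC, an aldolase isoform and HIF target, had 10.2 CPM with CDK4 siRNA against 15.8 in untreated cells, a ratio of 0.642 (0.536 to 0.768). PDK1 was also at 0.642 (0.452 to 0.904), from 56 reads against 93. These were the only genes of the 35 past the 1.5-fold rule, which 3.79% of all genes passed as higher and 0.906% as lower, and with total-count scaling neither passed. BNIP3L was at 0.709 (0.619 to 0.812), PFKFB4 at 0.717 (0.616 to 0.834), EGLN3 at 0.785 (0.632 to 0.974), P4HA1 at 0.789 (0.710 to 0.877) and BNIP3 at 0.795 (0.712 to 0.888). LDHA and LDHB were at 0.809 (0.794 to 0.825) and 0.825 (0.809 to 0.842). The targets VEGFA at 0.990 (0.898 to 1.09), ANKRD37 at 1.01 (0.676 to 1.5) and SLC16A3 at 0.990 (0.968 to 1.01) did not share this distance, and their sides of 1 depend on the scaling.

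Base composition moved with the CDK4 siRNA ratios. Across all genes with a GENCODE 29 transcript, the Spearman correlation of the log2 ratio with GC content was 0.331 (n = 11507), and across the 35 genes it was 0.35. The most GC-rich of the 35, PFKL at 64.1% GC, was at 1.15 (1.11 to 1.20), and the most AT-rich, HIF1A at 36.4% GC, at 0.948 (0.891 to 1.01). Subtracting the trend with GC content left the median of the 35 genes at −0.15. With palbociclib the correlation with GC content was −0.10 across the 35 genes and that with gene length 0.382, against 0.057 with length across all genes. Subtracting the length trend put the palbociclib median of the 35 genes at −0.01. Genes that share a library are not independent, so these values describe the libraries.

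With palbociclib set directly against CDK4 siRNA, VEGFA, ANKRD37 and KDM3A were higher and SLC16A3 and TPI1 lower by the 2-fold rule, or 3 and 2 of 35, against 8.75% and 13.8% of all genes. VEGFA was at 3.48 times the CDK4 siRNA level (3.21 to 3.78), ANKRD37 at 3.13 (2.25 to 4.39) and KDM3A at 2.23 (2.02 to 2.47), which is below the rule with total-count scaling. SLC16A3 was at 0.427 (0.413 to 0.440) and TPI1 at 0.455 (0.442 to 0.468). NDRG1 at 1.98 (1.86 to 2.12), PFKFB3 at 1.91 (1.79 to 2.04) and P4HA1 at 1.74 (1.57 to 1.93) also passed the 1.5-fold rule, which makes 6 higher and 2 lower, against 19.5% and 25.8% of all genes. Intervals lay above 1 for 18 genes and below 1 for 11, against 35.7% and 41.4% of all genes, but with total-count scaling 10 lay above 1 and 18 below. LDHA was at 0.721 (0.704 to 0.739) and LDHB at 1.12 (1.09 to 1.14), although LDHB is below 1 with total-count scaling.

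Read ratios of related genes do not depend on the scaling between libraries, and show unequal change only. Of 12 pairs, 9 had a palbociclib ratio relative to untreated whose interval excluded 1, the LDHA/LDHB pair above among them. The share among other gene pairs was not computed. For single genes, palbociclib intervals lay above 1 for 36% and below 1 for 41.9% of all genes. Pairs among PFKP, PFKL and PFKM share genes and are not independent. The furthest of the 12 were P4HA2/P4HA1 at 0.519 (0.444 to 0.606) and PFKFB4/PFKFB3 at 0.526 (0.449 to 0.617). ALDOC/ALDOA was at 0.679 (0.573 to 0.805) with palbociclib and at 0.658 (0.549 to 0.787) with CDK4 siRNA. PFKL/PFKM was at 1.46 (1.36 to 1.56) with palbociclib and 1.26 (1.19 to 1.34) with CDK4 siRNA. HK2/HK1 was at 1.18 (1.09 to 1.28) with palbociclib, while with CDK4 siRNA it was at 0.946 (0.870 to 1.03). P4HA2/P4HA1 was on the other side of 1 with CDK4 siRNA, at 1.30 (1.12 to 1.51). BNIP3L/BNIP3 was at 1.01 (0.845 to 1.20) and SLC2A1/SLC2A3 at 1.08 (0.730 to 1.59) with palbociclib.

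**Figure D4:**
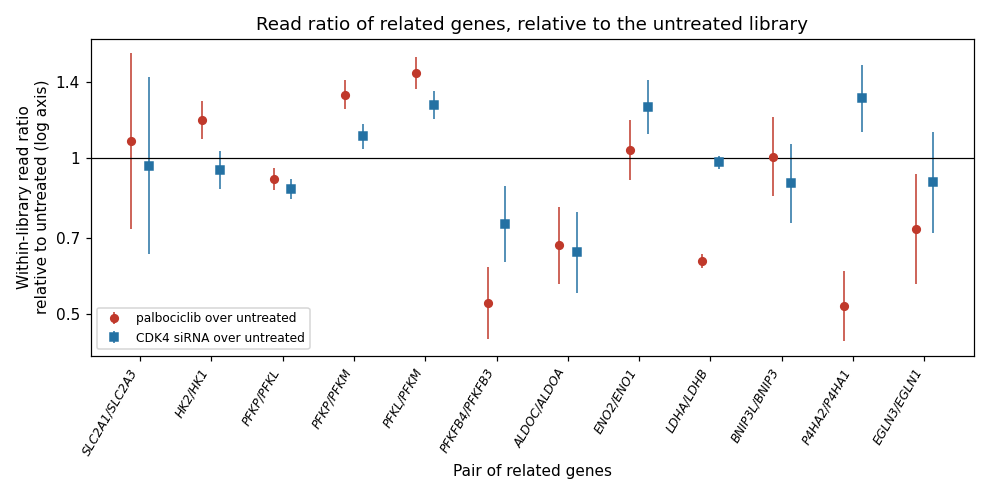
Read ratio of 12 pairs of related genes within a library, divided by the same ratio in the untreated library (log axis), for palbociclib and CDK4 siRNA, with 95% exact conditional intervals for counting error. With palbociclib P4HA2/P4HA1, PFKFB4/PFKFB3 and LDHA/LDHB lie lowest, at 0.519, 0.526 and 0.632, and with CDK4 siRNA LDHA/LDHB is at 0.980.

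Pyruvate entry into mitochondria and the glycerol phosphate shuttle lie next to glycolysis, and several of their genes were lower with palbociclib. Of 29 other glycolysis and pyruvate genes compared, 8 were lower by the 2-fold rule and 1 higher, against 13.6% and 10% of all genes. MPC1, a subunit of the mitochondrial pyruvate carrier, had 53 reads with palbociclib, 266 with CDK4 siRNA and 293 in untreated cells, and was at 0.234 times untreated with palbociclib (0.171 to 0.314). GPD2, the mitochondrial enzyme of the glycerol phosphate shuttle, was at 0.351 (0.325 to 0.378), pyruvate carboxylase gene PC at 0.371 (0.307 to 0.447), the kinase gene PDK3 at 0.364 (0.255 to 0.509) and the inositol transporter gene SLC2A13 at 0.383 (0.278 to 0.519). The others were GPD1, SLC16A7 and PDP1, and the higher one was the hexokinase-like gene HKDC1, all 4 outside the rule for named genes. None of these 29 passed the 2-fold rule with CDK4 siRNA. None of the 7 pentose phosphate genes passed the 2-fold rule in any comparison.

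Among 46 further HIF targets compared, 11 were higher and 4 lower with palbociclib by the 2-fold rule, against 10% and 13.6% of all genes. HMOX1, the heme oxygenase gene, was at 12.1 times untreated (11.4 to 12.8), the repressor gene BHLHE40 at 10.1 (9.20 to 11.2), and PPP1R15A, which restores protein synthesis after stress, at 8.88 (8.28 to 9.53). STC2, which encodes the secreted glycoprotein stanniocalcin, was at 5.66 (5.34 to 6.01). HMOX1, PPP1R15A and STC2 are also known targets of oxidative or integrated stress signalling, and BHLHE40 also responds to growth factor signals. On the low side was the ephrin gene EFNA3 at 0.317 (0.227 to 0.435). The other 3, named after their values were seen, were HILPDA at 0.403 (0.299 to 0.538), FAM162A at 0.406 (0.353 to 0.466) and PPFIA4 at 0.0663 (0.00776 to 0.256), the last from 2 reads with palbociclib against 39 in untreated cells. With CDK4 siRNA 1 of the 46, CXCR4, was lower, from 10 reads against 32 in untreated cells, and none was higher.

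Of 12 other oxygen sensing genes, 3 were higher with palbociclib by the 2-fold rule and 1, EGLN2, was lower, against 10% and 13.6% of all genes. The lowest log2 ratio of the 12 was −1.37. The higher genes were the coactivator genes CREBBP at 3.20 (3.07 to 3.34) and EP300 at 2.84 (2.68 to 3.0), and CITED2, which competes with HIF for them, at 2.49 (2.31 to 2.68). They fall outside the rule for named genes and were named after their values were seen. VHL, the gene of the ubiquitin ligase subunit that recognises hydroxylated HIF, had 1559 reads with palbociclib, 1213 with CDK4 siRNA and 1147 in untreated cells. These VHL reads are not scaled for the library totals, of which palbociclib had the smallest, or with TMM. Of 15 regulators of glycolysis compared, 6 were higher with palbociclib and none lower, against the same shares of all genes. RRAD, a small GTPase gene, was at 7.21 (5.41 to 9.76). With CDK4 siRNA 1 of the 15 was higher: MLXIPL, which encodes the glucose-responsive factor ChREBP, at 2.23 (1.84 to 2.71).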

How the data were processed

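For 3 libraries the authors deposited whole-number read counts per gene entry, with no normalisation, and FPKM. Dividing those counts by a length per gene and by the library total returns the deposited FPKM, to a relative deviation of 9.01e-12 at most over 16938 entries. The submitters' processing notes name HTSeq 0.6.1, DESeq and hg19. No aligner, annotation or strand setting is given in the sources used here. Table columns were matched to libraries by their titles.

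Counts of all 48162 entries were used for TMM scaling in edgeR 4.0.16 (R 4.3.3). The factors were 0.901 for palbociclib, 1.07 for CDK4 siRNA and 1.03 for untreated. Comparisons covered the 12694 entries with a mean of at least 1 CPM. Log2 ratios used a prior count of 2; plain ratios used none. Intervals are Clopper-Pearson for a ratio, Poisson for a level and exact conditional for a pair. They cover counting error only, since 1 library per group gives no spread between replicates. Reads that carry no molecular identifier can repeat the same molecule, which these intervals also leave out. A gene was called higher or lower at 2-fold, or 1.5-fold, with an interval excluding 1. The 36 genes and all lists were chosen with earlier results of these data known. Every one of the 36 is accounted for; those past 2-fold and the furthest of each of 8 role groups get full values. Other genes were named if past 2-fold at a mean of at least 5 CPM, at most 6 per direction by distance; 1 gene this names is not reported here. Where a symbol outside the 36 has several entries, the one with the most reads was named. Promoter windows are from RefSeq (GRCh38.p14), and overlaps, by name only, from GENCODE 29. Alternatives were total-count scaling, DESeq2 1.42.0 size factors, upper-quartile factors, deposited FPKM with a pseudocount of 0.1, no filter, a mean of at least 5 CPM, a prior count of 0.5, summed repeated symbols, and subtracted trends with gene length or GC content; the GC trend was chosen after seeing the data.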

Additional observations from a re-analysis of the deposited data

How the results depend on the processing

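With palbociclib against untreated, VEGFA, TPI1 and SLC16A3 passed the 2-fold rule under all 10 alternatives; ANKRD37 did so under 9 and is left out at a mean of at least 5 CPM, where 1 gene was higher. Total-count scaling moved the median log2 ratio of all genes from −0.07 to −0.27 and that of the 35 genes to −0.29, the deposited FPKM gave −0.29, and upper-quartile factors gave 0.03. Higher genes were 42.4% of all calls, 25.7% with total-count scaling and 52.6% with upper-quartile factors. KDM3A was past 2-fold with upper-quartile factors (log2 1.06) and with the GC trend subtracted (1.01). For palbociclib against CDK4 siRNA the median of the 35 genes was 0.16, −0.093 with total-count scaling or FPKM and 0.27 with upper-quartile factors. There, 5 genes were higher with upper-quartile factors and with the GC trend subtracted, KDM3A was below 2-fold with total-count scaling (0.90) and NDRG1 above it with DESeq2 size factors (1.05). With CDK4 siRNA no alternative brought any of the genes past 2-fold, and the median stayed between −0.18 and −0.09. Over the 4 scalings the sign held for 23 of 35 genes with palbociclib and 29 of 35 with CDK4 siRNA; the others lie close to 1. Palbociclib intervals below 1 numbered 14, 23 with total-count scaling and 9 with upper-quartile factors. CA9, with at most 5 reads, is limited by depth, and the part of its overlap with ARHGEF39 was not tested. No paired analysis was possible because each group has 1 library.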
